A study of Mus musculus with 12 samples.

Results

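Thbs4 encodes thrombospondin-4, a secreted glycoprotein of the extracellular matrix. It was followed through every probe set of the array annotated to Thbs4 and to no other gene, a rule that found 1 probe set among 12411, for 1 gene of 7542 with a probe set of their own. The gene was chosen by its measured values in the saline arrays, where this probe set was higher in labelled mutant than in control hippocampus, so values from the saline arrays are given below as a description and without a test. The kainate arrays of both genotypes took no part in that difference, and the difference tested here was taken on them. The spread used in that test was estimated from all 12 arrays, the saline arrays included.

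The samples were 12 Affymetrix MG-U74B arrays of mouse hippocampal RNA, 3 in each of 4 groups. Control animals received saline or kainate, an agonist of glutamate receptors that can evoke seizures, and so did animals labelled mutant, in a series on the loss of the transcription factors CREB and CREM. The mice were male and female littermates of 5 to 6 weeks, handled for 5 days and housed singly. They were injected intraperitoneally with saline or with kainate at 20 mg/kg, and hippocampi were taken after 1 h. Each array carried RNA pooled from 3 animals. The alleles of the mutant and of the control animals, the strain, and the promoter or cell type of any Cre driver were not stated in the labels.

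Thrombospondins are matricellular proteins, which means that they are secreted into the matrix and act there on cell surface receptors, proteases and growth factors rather than as structural fibres. Thbs1 and Thbs2 form one subgroup of the family, and Thbs3, Thbs4 and Comp the other, which differ in how many chains assemble. In brain, thrombospondins secreted by astrocytes promote the formation of excitatory synapses through the calcium channel subunit encoded by Cacna2d1, and Thbs4 is known from astroglia of the subventricular zone. Inside the cell, Thbs4 is known to bind the luminal part of Atf6, a sensor of the endoplasmic reticulum stress response. CREB and CREM bind the cAMP response element, a short palindrome found in the promoters of many genes induced by neuronal activity.

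Because the series concerns promoter-binding factors, the 250 bases before the annotated start of Thbs4 are shown. They lie at chr13:92794819-92795068 on the minus strand of GRCm38.p6 and were taken from RefSeq, as 1 entry for the gene. Capitals mark GC boxes (GGGCGG, or CCGCCC on the other strand).
Thbs4 promoter: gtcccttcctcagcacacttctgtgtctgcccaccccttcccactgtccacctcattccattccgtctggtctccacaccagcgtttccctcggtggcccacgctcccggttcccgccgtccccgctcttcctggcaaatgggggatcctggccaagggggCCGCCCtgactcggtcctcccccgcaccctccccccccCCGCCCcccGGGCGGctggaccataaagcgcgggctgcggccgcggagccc

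The window was 70.8% G or C and held 3 GC boxes, which begin 89, 51 and 42 bases before the start. Of 32851 promoter windows of the same length, 32.7% held at least 1 GC box on either strand. The full cAMP response element TGACGTCA was not among these letters and occurred in 1.55% of all windows. Its core TGACG, searched on both strands and contained in the full element, was not found here either and occurred in 17.8% of windows. The AP-1 motif TGACTCA (4.46% of windows) and the E box CACGTG (6.02%) were also not among these letters. These matches describe the letters of the window alone.

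Array medians lay between 3.77 and 4.07 on the deposited log2 scale, and between 5741 and 6378 probe sets of an array had a value over 4. A probe set was tested if it was over 4 in at least 3 of the 12 arrays, which 6334 were, Thbs4 among them. The Creb1 probe set was higher in labelled mutant arrays (means 8.23 and 7.97 with saline and kainate) than in control arrays (7.35 and 6.98), and the Crem probe set was under 4 throughout (group means 2.93 to 3.16). The position of these probes relative to a deleted part was not stated, so they do not check the genotype and the arrays are called labelled mutant. Arrays with replicate number 1 stood apart in their deviations from the group means over all tested probe sets. Between groups, deviations of number 2 ran with those of number 3 (r from 0.31 to 0.58). Those of number 1 ran against both (r from -0.78 to -0.48). Deviations of 3 arrays sum to 0 in each group, which favours a negative r between different numbers. Thbs4 results are given with and without the arrays numbered 1. The 3' to 5' log2 difference of the Actb control probe sets, a measure of RNA integrity, had group medians from 1.61 to 1.74, with overlapping ranges in all 4 groups. That of Gapdh was lowest on the array numbered 1 in every group (-0.36, -0.39, -0.40 and -0.42, against -0.33 to -0.03 on the other arrays), and its part in the Thbs4 results was not tested.

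Thbs4 was low in control hippocampus with saline. Its log2 values were 5.21, 4.03 and 4.11 in replicates 1, 2 and 3, with a mean of 4.45 ± 0.66 (SD, n = 3). The values numbered 2 and 3 lay just above the level required for testing, and replicate 1 stood above them. In labelled mutant hippocampus with saline the values were 6.77, 5.76 and 5.32, with a mean of 5.95 ± 0.742. All 3 were above all 3 control arrays, as for 4.48% of the tested probe sets, and this is the contrast that chose the gene. The difference was 1.50 on the log2 scale (2.83-fold, SE 0.454).

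After kainate, the values in control hippocampus were 5.51, 4.19 and 4.60, with a mean of 4.77 ± 0.675 (SD, n = 3). In labelled mutant hippocampus after kainate they were 6.36, 6.32 and 5.73, with a mean of 6.14 ± 0.351. The lowest labelled mutant array was again above the highest control array. Such a separation upwards occurred in 3.09% of the tested probe sets after kainate. In bulk tissue, more RNA per cell and more cells that make it cannot be told apart.

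**Figure D1:**
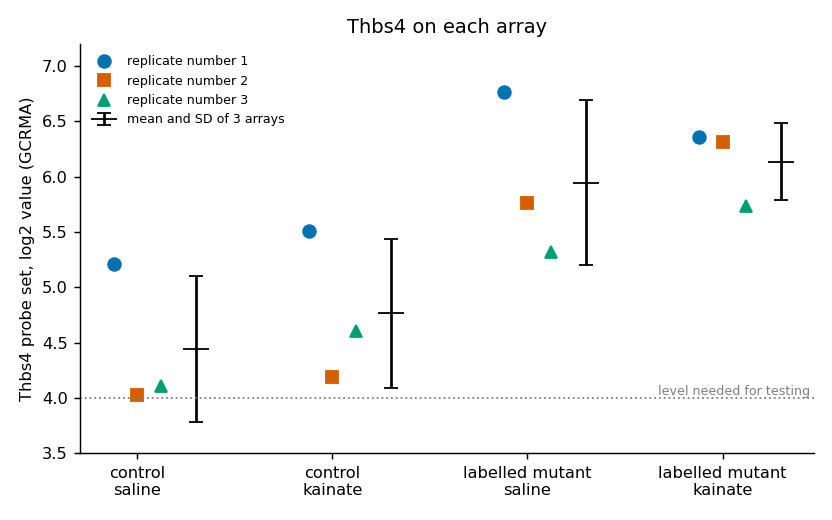
Log2 value of the Thbs4 probe set (vertical axis) on each of the 12 arrays, by group (horizontal axis). Symbols give the replicate number, bars the mean and SD of 3 arrays, and the dotted line the value of 4 needed for testing; labelled mutant arrays lie above control arrays within each treatment, and the arrays numbered 1 are the highest of each group.

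The order of the group means was control saline, control kainate, labelled mutant saline and labelled mutant kainate. The neighbours in that order that share a genotype differed by less than their SD, while the step from control kainate (4.77) to labelled mutant saline (5.95) exceeded it. Across treatments the genotypes met at one point. The highest control array, replicate 1 after kainate at 5.51, lay above the lowest labelled mutant array, replicate 3 with saline at 5.32.

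The test on the kainate arrays asked whether the genotype difference of Thbs4 was present in arrays that had not been used to choose it. Thbs4 was higher in labelled mutant arrays by 1.37 on the log2 scale (2.59-fold, SE 0.454, 95% interval 0.37 to 2.38), in 3 of 3 replicate numbers. It did not pass over all 6334 probe sets (limma with Benjamini-Hochberg adjustment, adjusted p = 0.914), where 4 probe sets passed, or 0.0632%. With the replicate number as a block, the difference had a 95% interval of 0.87 to 1.87 and an adjusted p of 0.0545 by limma. This was just above the threshold of 0.05, and 7 probe sets passed, or 0.111%. Both fits drew on the saline arrays for the spread. With the block on the compared kainate groups alone, the SE was 0.256 and the limma adjusted p 0.169. The exact two-sided permutation test of Thbs4 alone gave p = 0.1, the smallest that 3 against 3 arrays allow. Of 27 fits that left arrays out, some left out only 1 saline array. These kept the difference at 1.37, and only its SE and adjusted p could change. Of all 27, 2 passed. Without arrays numbered 1 in all groups the difference was 1.63 (limma adjusted p = 0.0303). With the block but without replicate 1 of labelled mutant kainate alone it was 1.65 (limma adjusted p = 0.0114). Leaving out that array without the block did not make it pass (1.26, limma adjusted p = 0.943). Nor did leaving out replicate 1 of control kainate without the block (1.74, limma adjusted p = 0.512). Without arrays numbered 2 it was 0.99 (limma adjusted p = 1.00).

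Compared within a replicate number, the difference after kainate was 0.85 for number 1, 2.13 for number 2 and 1.13 for number 3, that is 1.80-fold, 4.38-fold and 2.19-fold. With saline it was 1.56, 1.73 and 1.21. The kainate differences thus spread more widely (SD 0.672 over the 3 numbers) than those with saline (SD 0.267). In every replicate number both labelled mutant arrays lay above both control arrays, a pattern that 1.45% of the tested probe sets shared, and that the choice of the gene from the saline arrays favours.

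**Figure D2:**
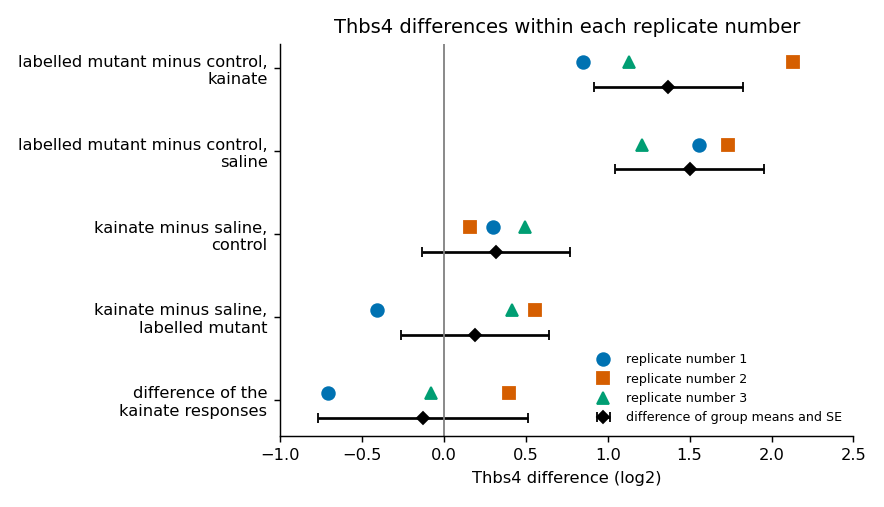
Thbs4 differences on the log2 scale (horizontal axis) for each comparison (vertical axis). Coloured symbols are the differences within replicate numbers 1, 2 and 3, and black diamonds the difference of group means with its SE from the fit over 12 arrays; the genotype differences lie between 0.85 and 2.13, and those of kainate against saline between -0.41 and 0.56.

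Kainate against saline gave smaller Thbs4 differences than genotype did. In control hippocampus the kainate arrays were higher by 0.32 (1.25-fold, SE 0.454), with 0.30, 0.16 and 0.49 for the 3 replicate numbers. The groups overlapped, and the difference was smaller than the SD of either group. In labelled mutant hippocampus the kainate arrays were higher by 0.19 (1.14-fold, SE 0.454), with -0.41, 0.56 and 0.42 for the 3 numbers. The sign differed between number 1 and the others. The kainate responses of both genotypes differed by -0.13 (SE 0.642, 95% interval -1.55 to 1.29), an interval that spans a larger response in either genotype. These 3 differences rest in part on the saline arrays that chose the gene and are given without a test.

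Of the spread of Thbs4 over the 12 arrays, measured as a sum of squares, 64.9% lay between genotypes, 25.9% between replicate numbers, 2.04% between treatments and 0.132% in the combination of genotype and treatment, with 7.03% left over. The share between genotypes includes the contrast that chose the gene. The mean of the 4 arrays numbered 1 was 5.96, against 5.07 for those numbered 2 and 4.94 for those numbered 3. Arrays numbered 1 were the highest of all 4 groups for Thbs4 and for 21.3% of the tested probe sets, so this offset was common on these arrays.

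By size, 1 of the 6334 probe sets had a larger difference upwards than Thbs4 after kainate. It was Hspb6, which encodes a small heat shock protein, at 1.42. A difference over 1 with both treatments was found for 3 probe sets, those of Thbs4, Mmab and Plek. Mmab, which encodes an enzyme of vitamin B12 metabolism, was higher by 1.56 with saline and 1.35 after kainate. Plek, a gene of blood-derived cells and microglia, was higher by 1.13 and 1.34. None of these 3 probe sets passed after kainate over all probe sets by limma (Mmab adjusted p = 0.804).

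**Figure D3:**
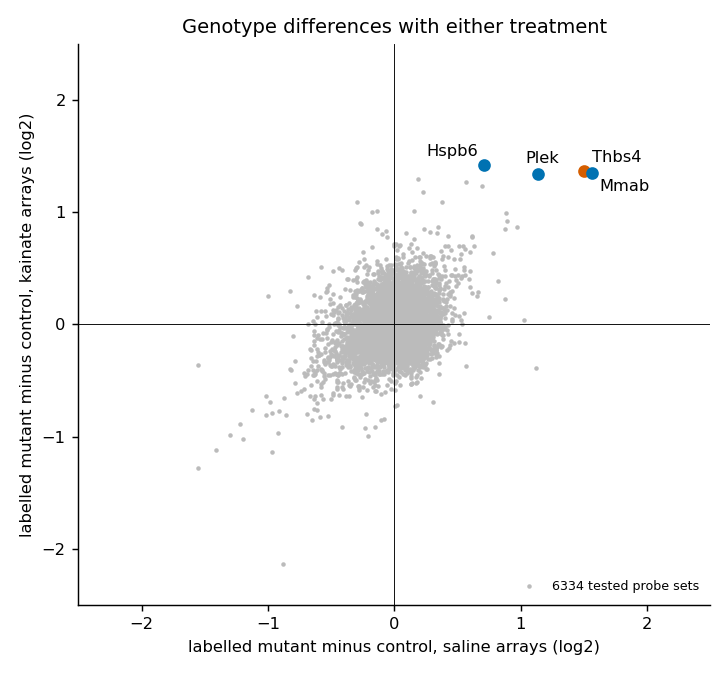
Labelled mutant minus control on the log2 scale for the 6334 tested probe sets, with the saline arrays on the horizontal axis and the kainate arrays on the vertical axis. Thbs4 (orange) lies at 1.50 and 1.37 beside Mmab, apart from most probe sets, and Plek and Hspb6 are marked in blue.

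The genes with values most like those of Thbs4 over the arrays were sought among 5924 other tested probe sets with 1 gene symbol. Likeness was Pearson's r over the 12 arrays, taken on the log2 values and again after the mean of each replicate number was removed, and 4 genes were among the 8 highest by both. Mmab had r = 0.94 and 0.95. Cyp4f14, which encodes a cytochrome P450 that hydroxylates fatty acids and leukotrienes, had r = 0.94 and 0.97. Rasgrp3, a Ras exchange factor gene, had 0.92 and 0.91, and Mxra8, which encodes an adhesion protein, had 0.88 and 0.92. The arrays share their RNA pools, the offset of number 1 and the genotype difference, all of which enter r, and no p is given.

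Mmab came nearest to Thbs4 in the size of its swings. Its values were 4.76, 3.25 and 3.65 in control saline arrays and 4.57, 4.51 and 4.20 in control kainate arrays. In labelled mutant arrays they were 6.20, 5.24 and 4.89 with saline and 5.72, 6.05 and 5.56 after kainate. All 6 labelled mutant arrays were above all 6 control arrays, as for 0.33% of the tested probe sets. For Thbs4 this was broken by the one crossing described above. Cyp4f14 followed Thbs4 in shape over a smaller range, with a genotype difference of 0.60 with saline and 0.48 after kainate, and its control and labelled mutant arrays overlapped with either treatment. Mxra8 ranged over a far narrower span, with differences of 0.14 and 0.21, and lay at the level required for testing (mean of 4.02 over 12 arrays).

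The other genes among the 8 highest over the 12 arrays were Ldlrad3, Slc1a2, Bap1 and Pxdn (r from 0.88 to 0.90). Slc1a2 encodes the main glutamate transporter of astrocytes, Bap1 a deubiquitinase of chromatin, and Pxdn a peroxidase that crosslinks basement membrane collagen. With the mean of each number removed, the others were Tmem219 (r = 0.95), Dynll2 (0.92), Hspb6 (0.89) and Dop1a (0.89), of which Dynll2 encodes a dynein light chain. Second probe sets of Rasgrp3, Bap1 and Tmem219 were below the level required for testing and gave genotype differences from -0.02 to 0.22.

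**Figure D4:**
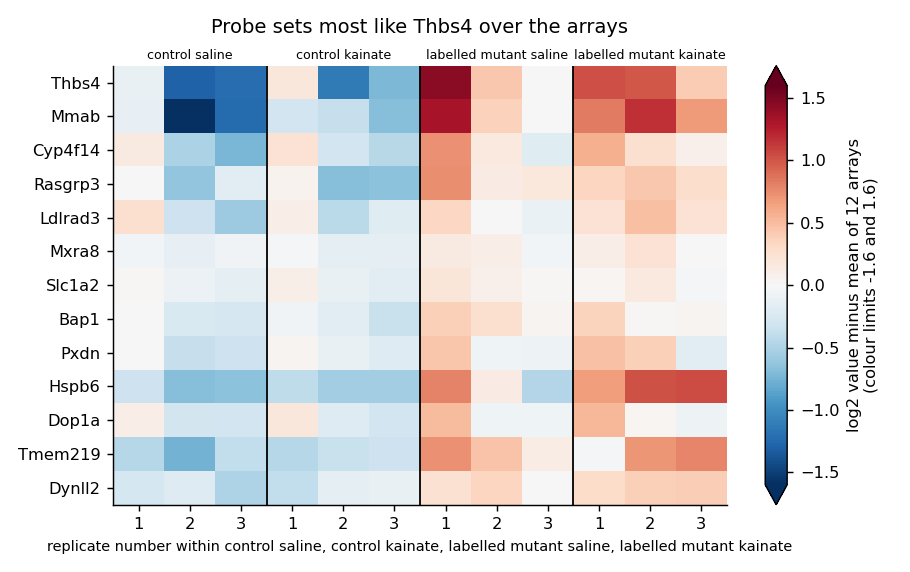
Log2 values minus the mean of 12 arrays for the probe set of Thbs4 and the 12 genes most like it by either measure (rows), over the 12 arrays (columns, by group and replicate number). Red is above and blue below the mean of a row; Mmab shows swings of the size of those of Thbs4, and most other rows are paler.

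Other members of the family could not be set beside it, because Thbs4 was the only 1 of the 5 thrombospondin genes with a probe set annotated to it alone. Of 25 other matricellular genes, 3 were tested, and none passed in either genotype comparison, with or without the block. After kainate Fbln5, which encodes an elastic fibre protein, differed by 0.10, Rspo3, a Wnt agonist gene, by -0.17 and Spon1, which encodes a secreted adhesion protein with thrombospondin repeats, by -0.09. With saline Spon1 differed by -0.64, away from Thbs4. No probe set of any kind passed with saline without the block by limma (0 of 6334, or 0%), where 246 had an unadjusted p under 0.05. The matricellular list had a median of -0.09 after kainate, against -0.03 over all tested probe sets.

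Receptors and partners of thrombospondins did not pass in either genotype comparison. Of 28 listed, 5 were tested, with a median of -0.10 after kainate and 0.03 with saline. Cacna2d1, the synaptogenic receptor of thrombospondins, lay between 9.57 and 9.92 in all 12 arrays and differed by 0.06 after kainate and -0.08 with saline. Its genotype groups overlapped with both treatments. Cacna2d2 differed by -0.10 after kainate, Scarb2, a lysosomal membrane protein gene, by 0.20, the syndecan gene Sdc4 by -0.17 and the integrin subunit gene Itga4 by -0.22. Sdc4 differed by 0.47 with saline.

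Genes of the endoplasmic reticulum stress response were represented by 4 of 25, and none passed in either genotype comparison. Atf6 differed by -0.39 after kainate and -0.0022 with saline, the chaperone gene Hyou1 by -0.04 and 0.05, Edem1, which acts in the disposal of misfolded proteins, by 0.23 and 0.16, and Sdf2l1 by -0.20 and -0.42. Of 15 genes for factors that organise synapses, most of them secreted by astrocytes, 5 were tested and none passed. They differed by -0.20 (Chrdl1) to -0.01 (Gpc6) after kainate, and all 5 lay below 0. With saline 4 of the 5 lay above 0. None of the 17 tested entries of these 4 lists passed for kainate against saline in either genotype by limma, where 0.158% of all probe sets passed in control and 0.174% in labelled mutant arrays.

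Markers of cell types were read beside Thbs4, since more than 1 cell type can contribute to a pool. Astrocyte markers lay above 0 with saline in 11 of 11 tested genes (20 listed), with a median of 0.21, and after kainate in 9 of 11, with a median of 0.16. Over all tested probe sets 55.3% lay above 0 with saline and 44.1% after kainate. The water channel gene Aqp4 differed by 0.44 with either treatment, Mlc1 by 0.36 and 0.37, and the endothelin receptor gene Ednrb by 0.27 and 0.44. For Aqp4 and Mlc1, as for Mmab, all 6 labelled mutant arrays lay above all 6 control arrays. This held for 0.33% of the tested probe sets, among them those of the microglia genes Plek, Tgfbr1 and Siglech. The transcription factor gene Sox9 differed by 0.29 with saline and -0.03 after kainate, and the glycolytic gene Aldoc by 0.15 and -0.19. No astrocyte marker passed, and Aqp4, Mlc1 and Ednrb were listed with their results known. The sum of the linear values of the list ranged from 16650 to 20765 in control and from 19747 to 24835 in labelled mutant saline arrays, and from 17352 to 20247 and from 18340 to 23501 after kainate. These ranges overlap, and they include Glul, the glutamine synthetase gene, whose probe set lay between 7.25 and 7.51 on arrays numbered 1 and between 12.1 and 12.5 on the others. Without Glul, an omission made after its values were seen, the sums of the other 10 genes ranged from 15896 to 16467 in control and 17609 to 19575 in labelled mutant saline arrays. After kainate they ranged from 15571 to 17194 and 18084 to 18842, and the sums no longer overlapped. Slc1a2 weighs most in these sums (mean log2 value 13.1, with Ttyh1 next at 11.4). The groups of Slc1a2 alone overlapped with both treatments.

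Microglia markers also lay above 0. All 5 tested genes of 15 lay above 0 with both treatments, with medians of 0.60 with saline and 0.67 after kainate. The sum of their linear values ranged from 379 to 424 in control and 512 to 687 in labelled mutant saline arrays, and from 422 to 428 and from 597 to 785 after kainate, without overlap. Plek had the largest difference, Tgfbr1 (0.62 and 0.79), Siglech (0.56 and 0.67) and Olfml3 (0.60 and 0.65) followed, and Tmem119 (0.17 and 0.02) was near 0. None passed in either comparison, with or without the block. Plek, Tgfbr1, Siglech and Olfml3 were listed with their results known, so their direction is not independent evidence. The part of astrocytes or microglia in the Thbs4 difference was not tested.

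Principal neuron markers of the hippocampus were present, with Slc17a7, the vesicular glutamate transporter gene, at a mean of 10.7 over 12 arrays and Fibcd1, a marker of CA1, at 8.47. Of 8 tested markers (21 listed) 2 lay above 0 with saline, with a median of -0.15, and 2 after kainate, with a median of -0.08. Fibcd1 differed by -0.56 with saline and -0.67 after kainate. Its labelled mutant arrays lay below all control arrays with both treatments, as for 4.33% of the tested probe sets with saline and 7.63% after kainate. Bcl11b, a transcription factor gene of deep layer and hippocampal neurons, differed by -0.91 with saline and passed there with the block (limma adjusted p = 0.0423). Of the listed genes other than Thbs4, it alone passed in a genotype comparison, with or without the block. With the block 0.142% of probe sets passed with saline. Inhibitory neuron markers had medians of 0.03 with saline and 0.44 after kainate over 3 genes, and oligodendrocyte markers -0.08 and -0.11 over 3. Bcl11b, Fibcd1 and the inhibitory neuron genes Gad2, Cnr1 and Maf were listed with their results known. Their direction and the adjusted p of Bcl11b are therefore not independent evidence.

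Other sources of Thbs4 near the hippocampus were thinly covered. Neural stem cell markers had medians of 0.26 with saline and 0.19 after kainate over 3 genes of 16, vascular smooth muscle and pericyte markers 0.13 and 0.06 over 3 of 12, and endothelial markers 0.04 and 0.09 over 2 of 12. The choroid plexus markers Sostdc1 and Clic6 differed by -0.07 and -0.26 with saline and by 0.39 and 0.90 after kainate. Ccdc153, an ependymal marker, differed by 0.06 and -0.34. Markers of thalamus and habenula had medians of -0.02 and -0.07 over 7 genes, striatum 0.12 and 0.05 over 4, and septum 0.0016 and -0.14 over 2. None of these passed, and no gene of the meningeal fibroblast list was measured. A low probe set does not show that a transcript is absent, since those of Olig2 and Gad1, genes expressed in hippocampus, were under 4 on every array.

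**Figure D5:**
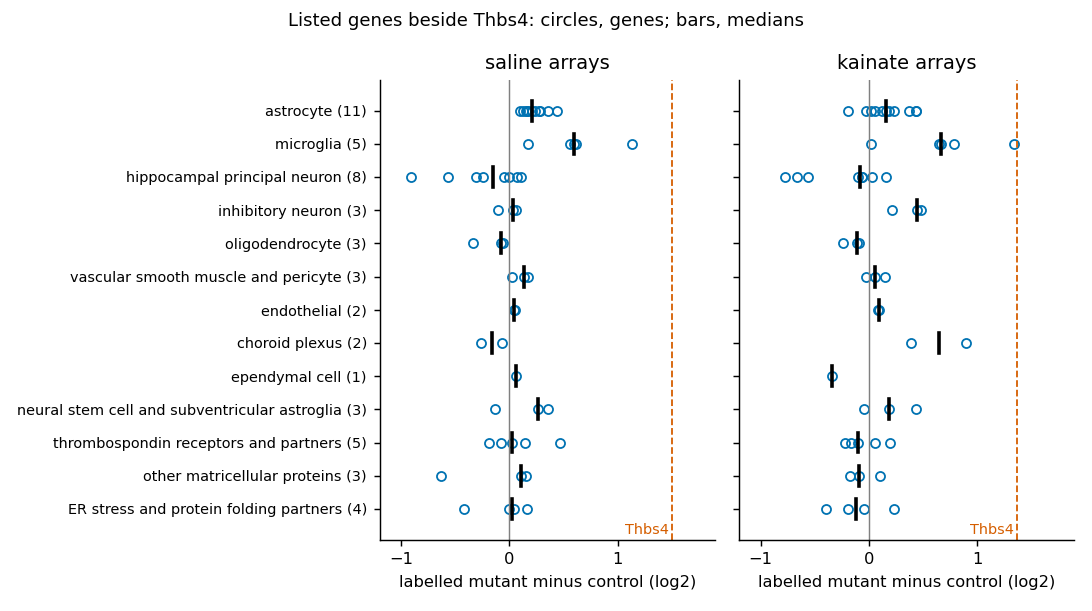
Labelled mutant minus control on the log2 scale (horizontal axes) for the tested genes of the lists (rows, number of genes in brackets), with saline arrays on the left and kainate arrays on the right. Circles are genes, black bars medians and the dashed line Thbs4, at 1.50 and 1.37; in 1 of these lists, that of microglia, a gene reached a difference over 1.

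The genes beside Thbs4 in the GRCm38.p6 annotation differed by at most 0.21 in size. Of the 3 protein-coding genes on each side, Serinc5, Mtx3 and Tent2 had a tested probe set. The Serinc5 probe sets differed between genotypes by 0.04 and -0.21 with saline and by 0.11 and -0.11 after kainate, Mtx3 by 0.13 and 0.15, and Tent2 by 0.12 and 0.19. The groups of each of these overlapped with both treatments. The probe sets of Spz1 and Cmya5 were below the level required for testing, and Zfyve16 had none with its symbol alone.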

How the data were processed

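The deposited log2 values, 1 per probe set and array, are GCRMA summaries computed by the authors in R 2.4.1 (credited to the submitters' processing notes), and no settings were stated. GCRMA corrects background by a model of probe sequence. Of 12477 probe sets, 66 controls were removed. Probe sets were named from the platform annotation (10581 with 1 symbol, 178 with several, 1652 with none). The 4 group means were fitted jointly on the 12 arrays by limma 3.58.1 under R 4.3.3 (eBayes with an intensity trend). This was done for the 6334 probe sets over 4 in at least 3 arrays, with Benjamini-Hochberg adjustment at 0.05. The fit without the block was tested on simulated data that held no offset between replicate numbers, so that check does not cover such an offset. In the pairing check, deviations from group means correlated above 0.1 for 18 of 18 pairs of arrays with a shared replicate number (r from 0.361 to 0.881). So did 12 of 36 pairs with different numbers, those of number 2 with number 3 (r from 0.309 to 0.583). The check thus set number 1 apart more than it did number 2 from number 3. The number was used as a block in an alternative fit. What a number stands for is not stated, and the labels call the replicates biological.

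Thbs4 and the gene lists were chosen with earlier results of these data known. Named genes were all measured thrombospondins, the 8 highest correlations with Thbs4 by each measure, the 3 neighbours on each side, and list members that passed or had the highest means; further members (Plek, Bcl11b, Ednrb, Tgfbr1 and others) were named after their values were seen. A gene with several probe sets was counted by the tested one with the highest mean. Alternatives were the block, scaling between arrays, the filter, the trend, the groups fitted and the arrays left out. Fits that left out 1 array with the block, the block with median centring and the block on the compared groups alone were added after the data were seen.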

Additional observations from a re-analysis of the deposited data

How the results depend on the processing

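Thbs4 was higher in labelled mutant arrays, with saline and after kainate, in every fit run. Over the 10 settings other than leaving out 1 array or 1 replicate number, the difference after kainate was 1.37 to 1.47. Their limma adjusted p ran from 0.0545 to 0.964, and 0 of 10 passed. The lowest was that of the replicate block; with the block and quantile normalization it was 0.0747, and with the block and median centring 0.103. When 1 array or 1 replicate number was left out, the difference ranged from 0.99 to 1.74. Fits that left out only 1 saline array kept it at 1.37. Of all 27 fits that left arrays out, 2 passed. They were those without number 1 (1.63) and, with the block, without replicate 1 of labelled mutant kainate (1.65). With saline the difference ranged from 1.41 to 1.50 over other settings and from 1.09 to 1.88 with arrays left out. Kainate against saline ranged from -0.05 to 0.70 in control and from -0.13 to 0.60 in labelled mutant arrays with arrays left out. The difference of the responses ranged from -0.51 to 0.28, so its sign is not settled. With no array left out, the replicate block changed no call of Thbs4 after kainate. Without replicate 1 of labelled mutant kainate it did (limma adjusted p = 0.0114 with the block and 0.943 without). Probe sets passing after kainate numbered 4, with 7 under the block and 8 under the block with quantile normalization. The number was 0 when the compared kainate groups were fitted alone, with or without the block. With arrays left out it ranged from 0 to 13. The values of Thbs4 in 2 control saline arrays (4.03 and 4.11) lay near the level required for testing, and the number of arrays limits the precision.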
